A study of Mus musculus with 18 samples.

Results

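miR-31 was followed through a CLEAR-CLIP data set of cultured mouse keratinocytes. CLEAR-CLIP crosslinks Ago2, the protein that carries miRNAs, to the RNAs it holds, pulls it down with an antibody and joins each miRNA to the RNA beside it. One sequenced read, called a chimeric read here, then names a miRNA and the place it was joined to. The reads described are those whose miRNA part was mmu-miR-31-5p or mmu-miR-31-3p. They numbered 111816 of 1153545, with 108292 of the 5p arm and 3524 of the 3p arm.

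The 18 libraries, 1 culture dish each, came in 2 sets, and all cells were mouse keratinocytes grown in low-calcium medium. Set 1 held 6 libraries of control cells that carried K14-Cre only, which drives Cre recombinase from a keratin promoter of basal keratinocytes, and 3 libraries of miR-200 double knockout (DKO) cells. Set 2 held 3 libraries of miR-200 inducible cells left uninduced, which served as its controls, 3 libraries of miR-200 DKO cells, and 3 libraries of the inducible cells given doxycycline at 3 ug/ml for 24 hours. So no group was treated to alter miR-31. The knockout and the inducible construct concern the miR-200 family, and the labels used here do not say whether the cells of a group were separate isolates. The libraries of a group were deposited as 1 pool with no library names. There was therefore no test across libraries, and each interval below is an exact 95% interval that covers counting error only. The spread between libraries is unknown, and 1 library could carry any difference between pools.

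miRNAs guide Argonaute proteins to transcripts mainly through bases 2 to 8 of their 5′ end, the seed. Pairing there lowers the stability or translation of the bound messenger RNA. miR-31 is abundant in keratinocytes, rises in wounded and psoriatic epidermis, and has been linked to keratinocyte proliferation, migration, hair cycling and NF-kB signalling. Its hairpin gives a main product from the 5p arm and a minor product from the 3p arm. Both mature sequences from RefSeq (GRCm38.p6) are given here with the seed in capitals, because every target below is a partner of one or the other.

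miR-31-5p: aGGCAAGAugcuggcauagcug

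miR-31-3p: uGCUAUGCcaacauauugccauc

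The 5p arm lies at chr4:88910614-88910635 and the 3p arm at chr4:88910577-88910599, both on the minus strand in the gene Mir31. No other of the 1738 mature mouse miRNAs in the table has either seed, so a match to these seeds belongs to no other family member.

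The pools held 48662 to 419117 reads. The set 1 DKO pool was the shallowest, with 48662 reads, and the set 1 control pool held 161692. The uninduced, DKO and induced pools of set 2 held 314071, 210003 and 419117 reads. Names of the miR-200 family took 3.20% of the set 1 control reads and 0.160% of the DKO reads of that set. They took 6.68% of the uninduced reads, 0.360% of the set 2 DKO reads and 9.04% of the induced reads, so both DKO pools were low in the deleted family. Of 13 keratinocyte markers, 12 or 13 were found as targets in each pool, at 41.7 to 62.0 chimeras per 10000. Krt15 was at 0 in every pool but the induced one. Fibroblast, immune, endothelial and melanocyte lists reached at most 1.06 per 10000, with Col1a1, Ptprc and Cdh5 at 0 in every pool. Some of their members were found. Pdgfra had 10 and 11 chimeras in the uninduced and induced pools. Of 6 markers each, 2 of melanocytes and 1 to 3 of endothelial cells were found in each pool. In set 1, 10 miRNA names led by miR-709 made up 37.8% of the control reads and 28.2% of the DKO reads, against 3.15% to 3.56% in set 2. Each set was sequenced in a run of its own, so set and run cannot be told apart.

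By reads, miR-31-5p was among the 4 most frequent miRNAs of every pool and the most frequent in all of set 2. With each distinct target position counted once, it ranked 2nd in the set 2 DKO pool. It made up 4.07% (95% interval 3.98 to 4.17) of the set 1 control reads, where it ranked 4th, and 4.97% (4.78 to 5.17) of the set 1 DKO reads, where it ranked 2nd. In set 2 it took 11.0% (10.9 to 11.2) of the uninduced reads, 8.12% (7.999 to 8.23) of the DKO reads and 11.3% (11.2 to 11.4) of the induced reads. The share was thus lower in both pools of set 1 than in any of set 2. Without the 10 names that were abundant in set 1, miR-31-5p was first in all 5 pools. Its share was then 6.55% and 6.93% in set 1 and 11.4%, 8.41% and 11.7% in set 2, in the same order of pools. In the set 2 DKO pool miR-27a-3p came close behind, with 8.24%.

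**Figure D1:**
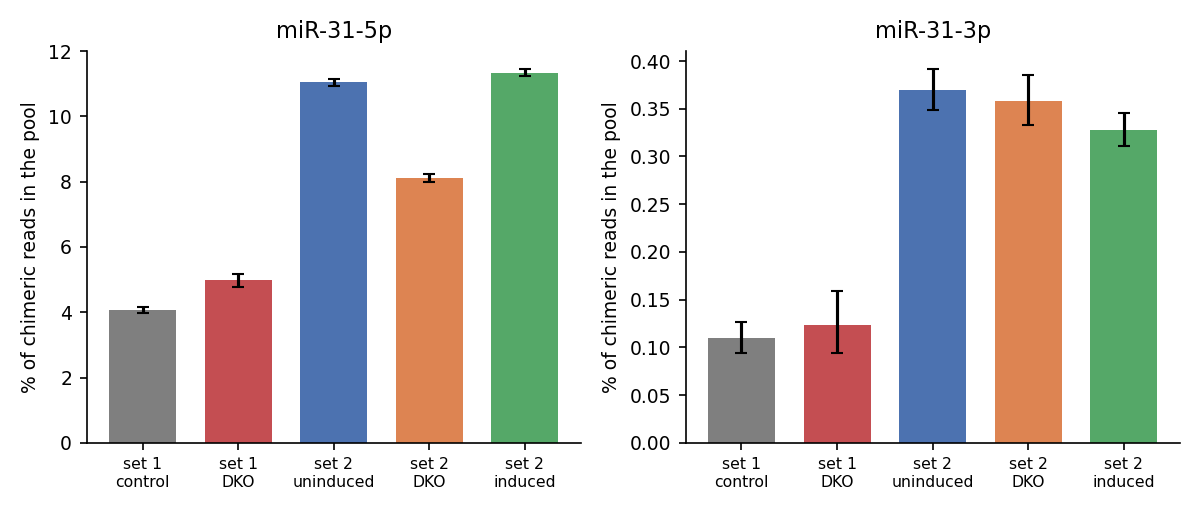
Share of chimeric reads that carried miR-31-5p (left) and miR-31-3p (right) in each of the 5 pools, in percent, with exact 95% intervals for counting error. The 5p share runs from 4.07% in the set 1 control pool to 11.3% in the induced pool, and the 3p share is at most 0.369%.

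The 3p arm was rare. It took 0.109% and 0.123% of the reads in the set 1 control and DKO pools, and 0.369%, 0.359% and 0.328% in the uninduced, DKO and induced pools of set 2. Of 100 reads of either arm, 2.62 (2.25 to 3.03) were of the 3p arm in the set 1 control pool and 2.42 (1.85 to 3.10) in the set 1 DKO pool. The set 2 DKO pool had 4.23 (3.94 to 4.54), above the uninduced pool with 3.24 (3.05 to 3.42) and the induced pool with 2.81 (2.66 to 2.96). The interval of the set 2 DKO pool overlaps neither of the others in that set.

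The first question was whether the miR-31 share differed with the miR-200 state of the cells. In set 1 the miR-31-5p share was higher in DKO than in control cells, with a ratio of 1.22 (1.16 to 1.28). Over the 172 miRNAs with at least 100 reads in the 2 pools together, the median ratio was 1.14, so miR-31-5p lay close to the middle. In set 2 the share was lower in DKO than in uninduced cells, with a ratio of 0.735 (0.721 to 0.748) against a median of 1.01 over 206 miRNAs. Induced cells differed little from uninduced cells, with a ratio of 1.03 (1.01 to 1.04; median of 227 miRNAs 0.984). Set against the DKO pool, the induced pool had a ratio of 1.40 (1.37 to 1.42; median of 219 miRNAs 0.980). The 2 last comparisons each share a pool with the one before.

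None of these 4 ratios of miR-31-5p reached 1.5-fold. Of the miRNAs compared, 21.5% were at least 1.5-fold higher and 23.3% at least 1.5-fold lower in the DKO pool of set 1. In set 2, 18.4% were higher and 20.9% lower in DKO than in uninduced cells, 2.2% higher and 1.32% lower in induced than in uninduced cells, and 16.9% higher and 20.1% lower in induced than in DKO cells. The 3p arm had ratios of 1.13 (0.826 to 1.52) in set 1 and 0.971 (0.885 to 1.07) for the set 2 DKO pool, both with intervals that hold 1. Its ratio was 0.888 (0.820 to 0.961) for induced over uninduced cells and 0.914 (0.836 to 1.00) for induced over DKO cells.

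**Figure D2:**
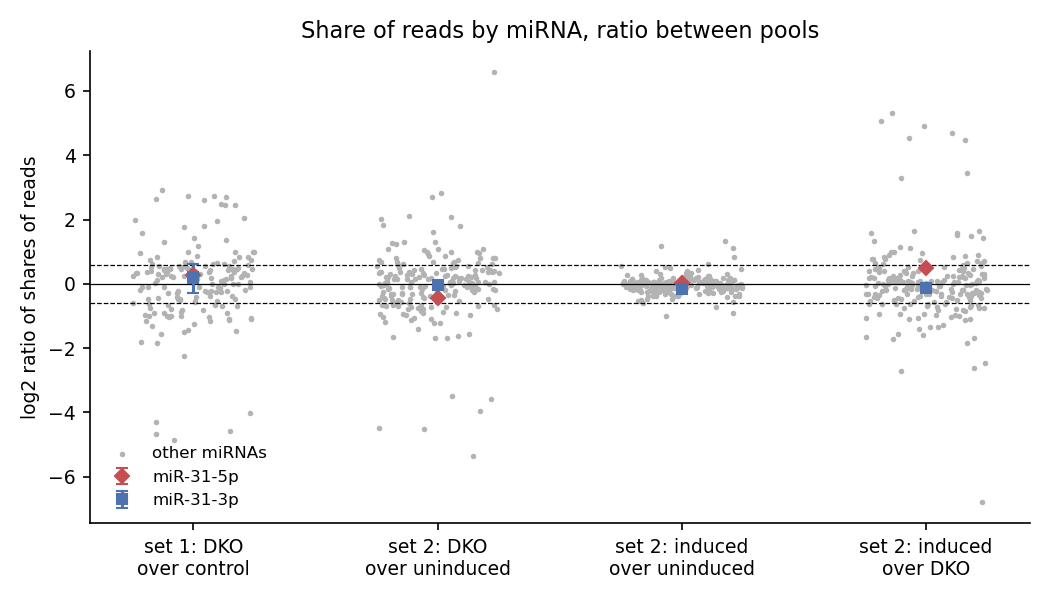
Log2 ratio of the share of reads between pools for each miRNA with at least 100 reads in the 2 pools together (grey points), with miR-31-5p and miR-31-3p marked and drawn with their exact 95% counting intervals. The dashed lines stand at 1.5-fold, and both arms of miR-31 lie between them in all 4 comparisons.

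The miRNAs whose shares over the 5 pools ran most like that of miR-31-5p were miR-22-3p, miR-183-5p, let-7a-5p, miR-182-5p and miR-18a-5p. The measure was the root mean square difference of log2 shares after each profile was centred. It was 0.144, 0.169, 0.176, 0.200 and 0.213 for these 5, against a median of 0.616 over 68 miRNAs. With 5 points that share 2 runs and their depths, this is a description. The share of miR-183-5p was 1.84%, 1.21% and 1.70% in the uninduced, DKO and induced pools, lower in DKO as for miR-31-5p. That of let-7a-5p was 2.14%, 2.05% and 2.10% there. miR-31-3p was not compared, since with 60 reads in DKO cells of set 1 it missed the minimum of 100 per pool.

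Targets were then counted as chimeras, that is, as distinct target positions on 1 strand within a pool, so that copies of a read at the same place count once. There were 88606 such miR-31-5p chimeras, 9.41% of all 941862. Targets lay in the span of a single protein-coding gene for 83.8% to 86.2% of them by pool, close to the 82.7% to 85.4% of all other miRNAs. Noncoding RNA genes held 2.65% to 3.27% and mitochondrial transcripts 2.54% to 3.93%. Where the strand of the gene was known, 96.9% to 98.4% of the miR-31-5p targets lay on it. Genes were assigned by their whole RefSeq span on mm10, so exons, introns and UTRs were not told apart.

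The miR-31-5p targets were spread over very many genes. At least 1 chimera fell in 8622 genes, at least 5 in 3739 and at least 20 in 1007. Of these 1007 genes, 864 had chimeras in both sets and 377 in all 5 pools. The 10 leading genes held only 4.18% of the chimeras. Across the 6363 genes with at least 20 chimeras of any miRNA, miR-31-5p made up a median of 7.79% of a gene's chimeras. These counts depend on how abundant a transcript is as well as on how it is bound, and no RNA levels were used here.

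The leading target was Neat1, the long noncoding RNA that scaffolds nuclear paraspeckles. It held 52 and 17 miR-31-5p chimeras in the set 1 control and DKO pools and 319, 187 and 456 in the uninduced, DKO and induced pools. That was 0.889%, 0.805%, 1.14%, 1.25% and 1.21% of the miR-31-5p chimeras of those pools, so the 5 pools lay close together. All miRNAs were found often on Neat1, with 12215 chimeras, and miR-31-5p made up 8.44% (7.95 to 8.95) of them, near the median gene. Malat1, another abundant nuclear RNA, was alike, with 7.90% of its 3722 chimeras.

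The second leading gene and first among protein-coding genes was Cldn4, which encodes the tight-junction protein claudin 4. It held 66 and 32 miR-31-5p chimeras in the set 1 pools, or 1.13% and 1.52% of each pool, and was the first gene of all there. In set 2 it held 151, 94 and 245, or 0.539%, 0.628% and 0.651%. Here miR-31-5p accounted for 588 of the 1543 chimeras of the gene, 38.1% (35.7 to 40.6).

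The other leading genes differed widely in the part that miR-31-5p took among their chimeras. The median over the 1007 genes with at least 20 miR-31-5p chimeras was 12.2%. Below it were the giant scaffold protein gene Ahnak (313 chimeras, 8.43% of the gene's), the PDZ scaffold gene Grip1 (268 chimeras, 10.2%), the ephrin gene Efna5 (164, 9.86%), the forkhead gene Foxp1 (183, 10.1%), the RNA-binding protein genes Rbms1 (267, 11.7%) and Rbms3 (152, 10.8%), the heparan sulfate polymerase gene Ext1 (98, 7.45%) and the polarity gene Pard3 (159, 8.93%). The desmosomal plaque gene Dsp (80, 13.1%) and the formin gene Fmnl2 (264, 17.2%) lay little above it. Higher shares were those of Foxc1, a forkhead transcription factor gene (103 chimeras, 69.6% of the gene's), the membrane transporter-family gene Mfsd14a (173, 52.6%), the cornified envelope gene Sprr1b (86, 50.6%), the surface protein gene Plet1 (272, 38.5%), the glutathione synthesis enzyme gene Gclc (168, 35.1%) and Kank1 (119, 26.6%). All 20 leading genes had miR-31-5p chimeras in all 5 pools.

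**Figure D3:**
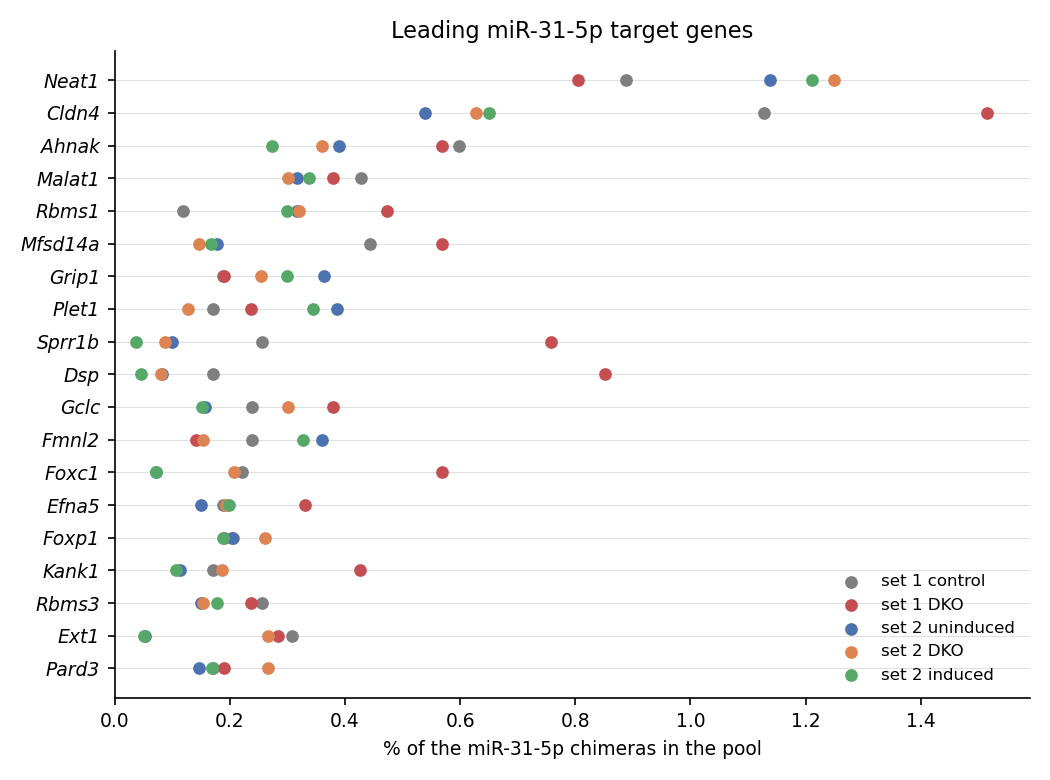
Share of the miR-31-5p chimeras of each pool, in percent, that fell in each of 19 of the 20 genes that led by the average of their 5 shares. Neat1 is highest in set 2 and Cldn4 in set 1. Cldn4, Sprr1b, Dsp, Foxc1, Rbms1, Mfsd14a, Gclc, Efna5 and Kank1 each have their highest share in the set 1 DKO pool, the shallowest. The average weighs the 5 pools alike.

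Chimeras of miR-31-5p did not only scatter over genes but stacked. Merging overlapping targets on the same strand over all pools gave 47780 places, of which 2315 held at least 5 chimeras and together 35.3% of all miR-31-5p chimeras. At least 20 chimeras were found at 292 places and at least 100 at 15. Of the 2315 places, 875 (37.8%) had chimeras in both sets and 165 in all 5 pools, and of the 292 with at least 20, 218 (74.7%) were in both sets. miR-31-5p was the leading miRNA at 2143 (92.6%) of the 2315 places and made up more than 50% of the chimeras at 1966 (84.9%). Its median share there was 90.9%, far from the 7.79% over whole genes, although the places were found through miR-31-5p and so lean towards it. The deepest stacks, in mitochondrial transcripts and the ribosomal RNA copy Rn18s-rs5, were shared by many miRNAs, and miR-31-5p made up 8.90% and 7.15% at the leading one of each kind.

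**Figure D4:**
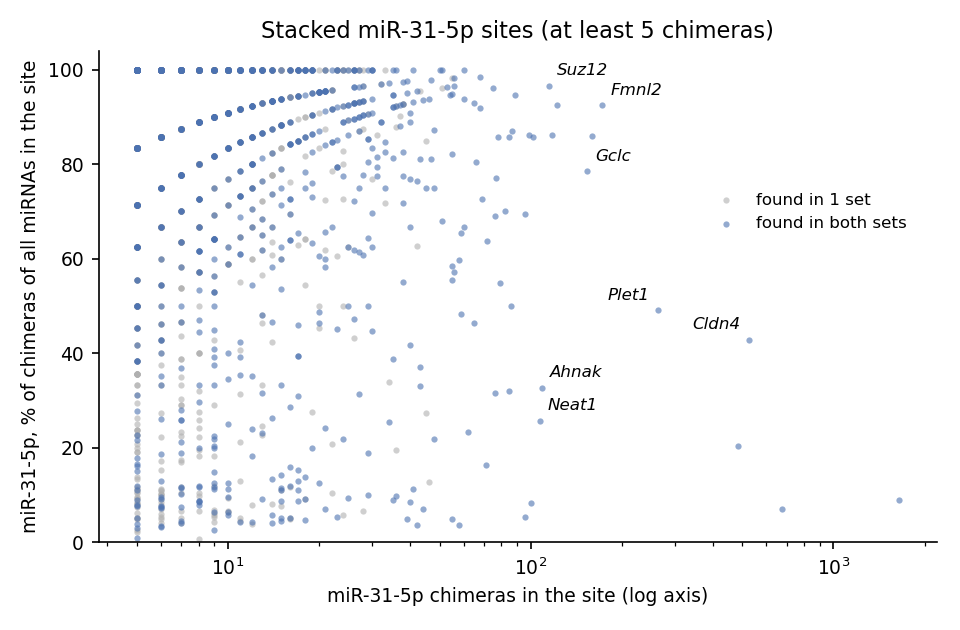
Each point is a place with at least 5 stacked miR-31-5p chimeras, plotted by their number on a log axis against the percentage of chimeras of all miRNAs at that place that carried miR-31-5p. Fmnl2 and Suz12 lie above 90%, Cldn4 and Plet1 between 40% and 50%, and the points farthest to the lower right are mitochondrial or ribosomal RNA.

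The deepest stack in a named gene was in Cldn4, at chr5:134945280-134945960, with 527 of the gene's 588 miR-31-5p chimeras. Over its 681 bases other miRNAs were also frequent, led by miR-27a-3p with 109 chimeras, and miR-31-5p made up 42.9% of 1228. Within it the miR-31-5p chimeras were bunched. Counted in steps of 25 bases from the 3′ end of the gene, 118 midpoints lay 475 to 500 bases and 146 lay 550 to 575 bases from that end. Chimeras of other miRNAs had their highest step elsewhere, 225 to 250 bases from the end, with 105.

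The stack in Plet1, at chr9:50504632-50505045, held 264 of the gene's 272 miR-31-5p chimeras and was narrower at its core, with 178 midpoints 800 to 825 bases from the 3′ end. The same step held the most chimeras of other miRNAs too, with 98. miR-182-5p was the next miRNA in this stack, with 43 chimeras, and its sequence is given here beside the point it bears on.

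miR-182-5p: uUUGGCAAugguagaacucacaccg

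It shares the letters GGCAA with miR-31-5p, at bases 4 to 8 here and at bases 2 to 6 of miR-31-5p, so the seeds overlap in 5 letters. miR-182-5p was the next miRNA at 68 (2.94%) of the 2315 places. Ahead of it were miR-21a-5p with 127 (5.49%), miR-125b-5p with 87 (3.76%) and miR-27a-3p with 71 (3.07%). The part that the shared letters take in this was not tested.

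**Figure D5:**
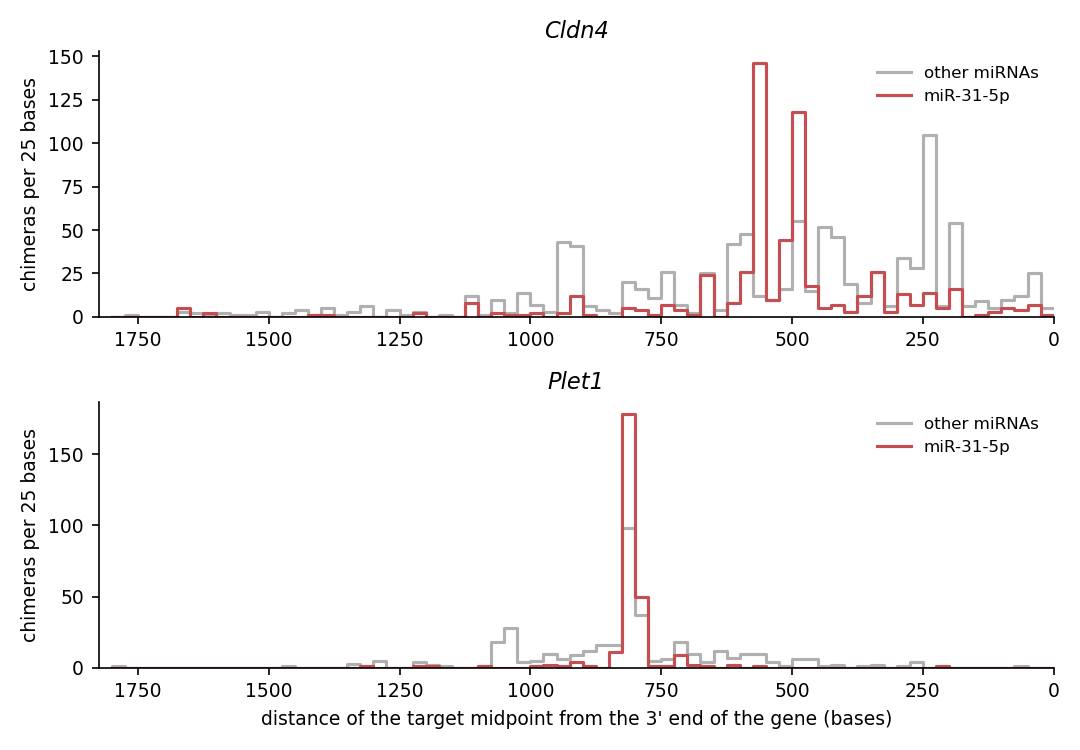
Midpoints of chimera targets per 25 bases, by distance from the 3′ end of Cldn4 and Plet1, for miR-31-5p and for all other miRNAs. miR-31-5p has 2 main peaks in Cldn4, of 118 and 146 chimeras, and 1 in Plet1, of 178.

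At several other deep stacks miR-31-5p made up most of the chimeras. In Fmnl2, at chr2:53114959-53115047, it had 172 of 186 chimeras (92.5%, 87.7 to 95.8), with 9 and 0 in the set 1 control and DKO pools and 72, 13 and 78 in the uninduced, DKO and induced pools. In Suz12, a subunit gene of the Polycomb repressive complex, the stack at chr11:80022147-80022242 had 115 of 119 (96.6%, 91.6 to 99.1). In Cebpa, a transcription factor gene of keratinocyte differentiation, 89 of 94 (94.7%, 88.0 to 98.3) lay at chr7:35121490-35121566, and these were all the miR-31-5p chimeras of the gene. By pool they numbered 7, 10, 25, 24 and 23 in the order used above. Mfsd14a had 160 of 186 (86.0%) at chr3:116631998-116632104 and Gclc 153 of 195 (78.5%) at chr9:77793731-77793840. In Kank1, 102 of 119 (85.7%) lay at chr19:25434411-25434522, where the midpoint of the stack was 32 bases from the 3′ end of the gene.

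The stacks in Rbms1 (118 of 137), Trp53inp1, an autophagy and p53-response gene (99 of 115), the lysosomal membrane gene Lamp2 (87 of 100) and the nucleolar protein gene Npm1 (96 of 138) were also mostly miR-31-5p. Those in Ahnak (109 of 333) and Neat1 (107 of 416 and 85 of 265) were not. All 15 of these stacks were found in both sets. The stacks in Fmnl2 and Trp53inp1 lacked the set 1 DKO pool, the shallowest, and the other 13 had chimeras in all 5 pools.

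Some genes were targets of miR-31-5p more than of all other miRNAs together. Over 50% of the chimeras were miR-31-5p in 58 of the 6363 genes, and 37 of these had at least 20 miR-31-5p chimeras. The highest share was that of Ovca2, with 41 of 43 chimeras (95.3%, 84.2 to 99.4), followed by Hcar2, a receptor gene for hydroxybutyrate and niacin, with 30 of 34 (88.2%). All 30 chimeras of Hcar2 lay in 1 stack with no other miRNA, at chr5:123865331-123865388. Next came the noncoding RNA gene Gm33318 (21 of 25), Aldoart1 (28 of 34), Tmem62 (20 of 25), Cebpa (89 of 113, 78.8%), the lysosomal enzyme gene Aga (25 of 33), the noncoding RNA gene 2700038G22Rik (33 of 45), the ciliary transport gene Ift46 (29 of 40) and Higd1a (21 of 29), at 84.0% down to 72.4%. Aldoart1 is a retrogene copy of Aldoa, so its reads cannot be placed with certainty. For 7 of these 10 genes the best stack held every miR-31-5p chimera of the gene.

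A list of 34 genes often named as miR-31 targets was looked up next, many of them studied in skin. In all, 28 had at least 1 miR-31-5p chimera, 23 had at least 5 and 13 at least 20. Such counts depend on transcript abundance as well, and no share over all genes was computed beside them. Over the 27 members with at least 20 chimeras of any miRNA, the median share of miR-31-5p among the gene's chimeras was 8.64%. The median over all genes was 7.79%, so the median of the list lay close to the background. Still, 20 of the 27 members lay above the median of all genes. A share over 25% was found for 3 of the 27, against 5.37% of all genes. These tallies were not tested. The highest shares were those of the Hippo pathway kinase gene Lats2 (99 of 308 chimeras, 32.1%), Kank1 (119 of 448, 26.6%) and Stk40, a regulator of NF-kB (39 of 152, 25.7%). Ppp6c, the phosphatase subunit gene tied to miR-31 in psoriasis, had 26 of 129 (20.2%).

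In Lats2, 82 of the 99 chimeras were in 1 stack at chr14:57690658-57690778, where miR-31-5p made up 70.1% of 117 and miR-205-5p was next with 15. The pools gave 10, 1, 24, 15 and 32 of them. In Stk40, 28 of 39 lay at chr4:126139926-126140103, with 60.9% miR-31-5p. Tiam1, the Rac exchange factor gene, had 116 chimeras, Gsk3b 62 and Spred2 61, at 11.98%, 11.1% and 12.3% of the gene's. Dlx3, Spry4, Dkk1, Fgf10, Fzd3 and Wasf3 had none, but these 6 genes had at most 7 chimeras of any miRNA each, so a target there was not detectable at this depth. Itga5, which had 67 chimeras of all miRNAs, held 1 of miR-31-5p.

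Among pathway lists, the 17 regulators of NF-kB had the highest median share, 16.0% over the 13 members with at least 20 chimeras, with 10 of the 13 above the median of all genes. They were led by Stk40, Nfkb1 (30 of 134 chimeras, 22.4%) and Ppp6c. The inhibitor gene Nfkbia (16 of 56, 28.6%) had the highest share on few chimeras, and Tnip1 had 8 of 37 (21.6%). The list was chosen with its link to miR-31 known, and Stk40 and Ppp6c are also on the list of named targets. The medians of the other lists were 8.55% for the Wnt pathway, 8.30% for oxygen sensing, 7.56% for brakes on RAS and MAPK signalling, 7.04% for the Hippo pathway and 6.80% for the clock. Members with many chimeras in these lists were Ctnnb1, the beta-catenin gene (58 of 375, 15.5%), Dusp1, a MAPK phosphatase gene (70 of 593, 11.8%), Tead1 (59 of 745, 7.92%) and Hif1a (34 of 501, 6.79%). Others that led their list were Nf1 (30 of 326, 9.20%), Tead4 (36 of 351, 10.3%), Csnk1a1 (35 of 867, 4.04%), Hif1an (11 of 132, 8.33%), Egln3 (10 of 111, 9.01%), Clock (28 of 309, 9.06%), Arntl (18 of 110, 16.4%) and Per2 (5 of 26, 19.2%). In Dusp1, 55 of the 70 stacked at chr17:26506281-26506333 with let-7e-5p next, at 11.

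Whether miR-31-5p chimeras hold a match to its seed could be read only where the target lay wholly in one of the RefSeq windows around gene starts (GRCm38.p6), since sequence elsewhere was not used here. That was so for 133 of the 88606 chimeras, in 91 windows. The match, TCTTGCC on the strand of the target, was present in 33 (24.8%, 17.7 to 33.0), against 2 of 1403 chimeras of all other miRNAs (0.143%) in such windows. The letters occur in 2.25% of the 32851 windows in all. By pool the match was in 2 of 9, 1 of 4, 17 of 43, 0 of 24 and 13 of 53 chimeras in the order used above, so none was seen in the set 2 DKO pool. The 33 chimeras lay in 10 windows, and counted once per window the share was 11.0%, against 0.254% for other miRNAs. Of the leading miRNAs with at least 36 chimeras in windows, miR-24-3p had its own match (CTGAGCC) in 27.8% of 36, and the others had theirs in 0% to 2.70%.

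The sequences of 4 of these places follow with the match in capitals, chosen as those with the most miR-31-5p chimeras in their window, each read on the strand of the target.

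Midn, chr10:80148277-80148305: ggcacggccaccTCTTGCCaggacccata

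Uros, chr7:133702483-133702511: tgattgcctcacTCTTGCCtctctccttc

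Zfp661, chr2:127584628-127584652: ggttcccagtacTCTTGCCaaaggt

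Gm38469, chr15:96275443-96275471: gaaaaccacatgTCTTGCCtcatctgtgg

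At the place in Midn, on the plus strand, 10 of 11 chimeras of all miRNAs over the match were miR-31-5p. At those in Uros (6), Zfp661 (5) and Gm38469 (4), all on the minus strand, every chimera over the match was. An A follows the match, opposite base 1 of the miRNA, at 4 of all 10 places, Midn and Zfp661 among them.

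Targets of miR-31-5p lay near the 3′ end of genes less often than those of all other miRNAs together in set 2. Among genes longer than 10000 bases with a known strand, 15.0% (14.5 to 15.5) of its chimeras in the uninduced pool fell in the last 2000 bases, against 20.6% (20.4 to 20.9) of other miRNAs. In the DKO pool these were 14.9% and 17.6%, and in the induced pool 14.5% and 20.8%. Set 1 ran the other way, with 16.4% against 11.4% in control cells and 21.6% against 17.0% in DKO cells. In set 1 the comparison group held the 10 abundant names. Of these, miR-709, miR-3470b and miR-706 had 1.33% to 1.87% of their chimeras near the end, counted over all pools. The part that these names take in the set 1 difference was not tested. Over all pools miR-31-5p had 15.0%, miR-21a-5p 17.2%, miR-205-5p 19.3% and miR-27a-3p 21.5%.

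The next question was whether miR-31-5p was distributed differently over its targets when miR-200 was absent or induced. Genes with at least 20 miR-31-5p chimeras in the 2 pools together were compared by the gene's share of the pool's miR-31-5p chimeras. In set 1 only 13 genes had enough chimeras, of which 3 (23.1%) were at least 2-fold higher and 2 (15.4%) at least 2-fold lower in DKO cells. In set 2, 29 of 344 genes (8.43%) were higher and 70 (20.3%) lower in DKO than in uninduced cells. Between induced and uninduced cells, 27 of 681 (3.96%) were higher and 32 (4.7%) lower. The minimum was set on raw counts, and the uninduced pool held 28019 miR-31-5p chimeras against 14971 in the set 2 DKO pool. Genes with a higher share in the uninduced pool thus passed it more easily, so the 70 and 29 cannot be weighed against each other. The set 1 and induced comparisons also set pools of unlike depth against each other. Many of the chimera counts per gene were small. Among the genes past 2-fold, the unadjusted interval excluded 1 for 4 of 5 in set 1. It did so for 52 of 99 in the set 2 DKO comparison and 22 of 59 in the induced comparison. Over all the genes compared, it excluded 1 for 4 of 13, 57 of 344 and 28 of 681, in the same order. With at least 40 chimeras required, 0, 13 and 4 genes were past 2-fold.

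The chimeras of other miRNAs on these genes were set beside them. For 80 of the 99 genes of the set 2 DKO comparison the gene's share of other miRNAs' chimeras lay on the same side of 1, and for 24 it was past 2-fold as well. For the induced comparison these were 38 and 1 of 59. The same tally over all the genes compared was not made, so these counts have no background beside them. The part that transcript levels take in these differences was not tested.

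In set 2, DKO cells had more miR-31-5p chimeras on Ext1, with 40 against 15 in uninduced cells, a ratio of 4.99 (2.70 to 9.73), beside 3.44 (2.89 to 4.11) for other miRNAs. Cdh13, the T-cadherin gene, had 24 against 6 (7.49, 2.98 to 22.4) and Galnt18 17 against 4 (7.95, 2.59 to 32.5), beside 6.71 and 6.55 for other miRNAs. The Hedgehog effector gene Gli2 and Sh3rf1 each had 16 against 5 (5.99, 2.10 to 20.9), beside 2.30 and 3.69. Lower in DKO cells was Hmga2, a chromatin protein gene, with 9 against 80 (0.211, 0.0929 to 0.420), beside 0.399 (0.339 to 0.467) for other miRNAs. Peak1, a cytoskeletal kinase-like gene, had 3 against 28 (0.201), beside 0.688 for other miRNAs. Afdn, an adherens junction gene, had 3 against 25 (0.225) and Uri1 2 against 18 (0.208), beside 0.486 and 0.779. With reads of the same barcode and starts within 5 bases counted once, these were 5 against 27 (0.362, 0.109 to 0.953) and 2 against 12 (0.326, 0.0354 to 1.46), and the interval of Uri1 then holds 1. Ccbe1 had 0 against 20, at least 3.56-fold lower if a floor of 3 chimeras is set in the DKO pool. Other miRNAs there had 10 against 116, a ratio of 0.119 (0.0558 to 0.228).

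Of the leading genes, Plet1 had 19 chimeras in DKO and 108 in uninduced cells (0.329, 0.191 to 0.539), and other miRNAs there had a ratio of 0.279 (0.186 to 0.407). Fmnl2 had 23 against 101 (0.426, 0.259 to 0.675), and its other miRNAs 0.697 (0.579 to 0.836). Gclc had 45 against 44 (1.91, 1.23 to 2.97), and its other miRNAs 2.70 (1.96 to 3.76). Cldn4 and Neat1 had intervals that hold 1, with 1.17 (0.891 to 1.52) and 1.10 (0.911 to 1.32).

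In set 1, the shares of Dsp (18 chimeras in DKO against 10 in control cells), Sprr1b (16 against 15) and Foxc1 (12 against 13) were higher in the shallower DKO pool, with ratios of 4.99, 2.96 and 2.56. Counts of distinct positions can include copies of 1 molecule with ragged ends. When reads with the same barcode and starts within 5 bases were counted once, Dsp had 11 against 14 and its ratio was 2.43 (0.998 to 5.76), Foxc1 had 2.21 (0.878 to 5.35) and Sprr1b 2.75 (1.31 to 5.71). The chimeras of other miRNAs on Sprr1b had a ratio of 14.8 (4.93 to 60.0), and those on Dsp 1.19 (0.752 to 1.83). Flrt2 had 0 chimeras in DKO against 26 in control cells, at least 3.13-fold lower against a floor of 3. Other miRNAs there had a ratio of 0.796 (0.501 to 1.22).

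All 13 genes tested in set 1 were also tested in the DKO comparison of set 2, which shares no pool with it. The ratio lay on the same side of 1 in both sets for 5 of 13. With the same barcode within 5 bases counted once it did so for 5 again, but Gclc and Malat1 no longer did while Dsp and Rbms3 then did. Foxc1 was the only one past 2-fold on the same side in both, with 2.56 (1.07 to 6.08) in set 1 and 2.90 (1.60 to 5.37) in set 2, where it had 31 chimeras in DKO and 20 in uninduced cells. Other miRNAs on Foxc1 also had higher shares in DKO cells, with 6.25 (1.33 to 38.6) and 2.77 (1.05 to 8.11). Flrt2, lower in set 1, had a ratio of 4.12 in set 2, and Dsp and Sprr1b, higher in set 1, had 0.976 and 0.869 (1.09 and 0.804 by barcode).

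Between induced and uninduced cells the leading genes differed little, and intervals excluded 1 for 2 of the 20. Ahnak had 103 against 109 chimeras (0.703, 0.532 to 0.929), beside 1.01 for other miRNAs, and Sprr1b 14 against 28 (0.372, 0.181 to 0.731), beside 0.242. Cldn4 had a ratio of 1.21 (0.982 to 1.49). Counted by barcode it had 342 against 198 (1.28, 1.08 to 1.54), an interval that excludes 1. The highest ratio was that of Rictor, the subunit gene of mTOR complex 2, with 18 against 2 (6.70, 1.60 to 59.5), beside 1.00 for other miRNAs. Zfc3h1 (18 against 3), Hipk2 and Rabgap1l (17 against 3 each) and the ubiquitin ligase gene Cbl (22 against 5) had ratios of 4.46, 4.22, 4.22 and 3.27, beside 0.805 to 1.10 for other miRNAs. Lower were Gramd3 and Kif1c (6 against 14 each, 0.319), Uri1 (9 against 18) and Kdm5b (7 against 14), both at 0.372, beside 0.806 to 0.967 for other miRNAs. These rest on few chimeras: with the same barcode within 5 bases counted once, the intervals of Cbl (0.914 to 6.21), Uri1 (0.273 to 1.69) and Kdm5b (0.145 to 1.20) hold 1.

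The targets of the 3p arm were also spread over many genes. Its 3137 chimeras fell in 1509 genes, of which 1401 also had miR-31-5p chimeras, and 33 places held at least 5. miR-31-5p had chimeras in 8622 genes, and the overlap for other miRNAs was not counted. The 1401 are therefore no sign of a tie between the 2 arms. The leading gene was Thbd, which encodes thrombomodulin, a surface receptor for thrombin. All 68 of its miR-31-3p chimeras lay in 1 stack at chr2:148404708-148404822, with 2, 3, 25, 7 and 31 in the 5 pools, while miR-31-5p had 25 on the whole gene. Neat1 had 48, with 0 in both pools of set 1, Efna5 15, the R-spondin receptor gene Lgr4 13 and the septin gene Septin2 13. Of the 13 on Lgr4, 11 came from the set 2 DKO pool. Larger stacks of the 3p arm lay in mitochondrial (132 chimeras) and ribosomal RNA (73 in Rn18s-rs5).

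miR-31 was also found joined to its own hairpin. The Mir31 hairpin was the target in 62 miR-31-5p chimeras, 41 of them on the 3p arm and 21 on the 5p arm, and in 12 of miR-31-3p, 9 of them on the 5p arm. Other miRNAs, of 66 names, gave 196 chimeras there, 152 on the 5p arm and 42 on the 3p arm. These were 0.0700% of the chimeras of miR-31-5p, 0.383% of those of miR-31-3p and 0.0231% of those of other miRNAs.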

How the data were processed

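RNA bound to Ago2 was crosslinked at 254 nm and 300 mJ/cm2, ligated and sequenced in 18 libraries, per the labels' protocols. The submitters' processing notes name cutadapt, Novoalign and bedtools and the mm10 build; versions and settings are not given in the sources used here. The authors deposited 1 list per group, pooling its libraries, with a row per chimeric read: target position, strand, a 4-base barcode and the miRNA name. No rows are counts or normalized values, so no count model was fitted.

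Reads were counted per miRNA as shares of a pool. Chimeras are distinct positions of a miRNA on a strand in a pool. Deposited starts count from 0 and are given from 1 here: 1472 plus-strand reads began at a mature miRNA's first base after adding 1, and 94 without. Targets were named by the gene span holding their midpoint (RefSeq, GRCm38.p6), and sites by overlap on 1 strand. Ratios of shares have exact conditional intervals and shares exact Clopper-Pearson intervals, at 95%. They cover counting error only, and a pool at 0 reads allows up to 0.00616% of the set 1 DKO reads (3 reads), the shallowest pool. PCR copies are not independent molecules. Reads with position, miRNA and barcode also seen in another pool of the same run made up 4.40% to 11.98% of the miR-31-5p reads.

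The genes named were the 20 with the highest mean share, the 15 deepest sites, the 10 highest miR-31-5p shares, 3 per list, 5 per comparison and direction, and 5 of the 3p arm; the text gives the largest of these in full, and other genes were chosen after their values were seen. Results for 1 leading gene and 1 gene list are not reported here. Members and lists were chosen with earlier results of these data known. The seed match, planned for a genome of the build, was read from RefSeq windows around gene starts instead, a choice made after the data were seen. The scripts (Python 3.11.15, pandas 2.3.3, SciPy 1.17.1) were tested on simulated data.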

Additional observations from a re-analysis of the deposited data

Results flagged for a closer look

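The miR-31-5p share of reads moved in opposite directions in the DKO pools of the 2 sets. Its ratio was 1.22 (1.16 to 1.28) for DKO over K14-Cre control cells in set 1. In set 2 it was 0.735 (0.721 to 0.748) for DKO over uninduced inducible cells. The median of all miRNAs compared was 1.14 in set 1 and 1.01 in set 2. The set 1 ratio thus lay close to its median. Without the names abundant in set 1, the set 1 ratio was 1.06 (1.01 to 1.11) against a median of 1.01. The set 2 ratio was then 0.738 against a median of 1.01. The difference between the sets was not tested, because each pool is a single value, and the control cells, the run and the depth differ between the sets as well.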

How the results depend on the processing

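No paired analysis was possible because the deposited lists pool the libraries of a group and carry no library or replicate numbers, and for the same reason no library could be left out. The ratios of the miR-31-5p share kept their direction under the alternatives run. Of the 79 gene ratios recomputed by barcode, 10 moved to the other side of 1, Gclc in set 1 from 1.58 to 0.902 and Rbms3 there from 0.924 to 1.41 among them, and the interval of each of the 10 held 1 to begin with. The set 1 DKO ratio of the miR-31-5p share was 1.12 with each position counted once, 1.29 without reads shared within the run, 1.06 without the 10 names abundant in set 1 and 1.13 with the same barcode within 5 bases counted once. The median of all miRNAs fell to 1.01 without those 10 names. The set 2 DKO ratio was 0.762, 0.721 and, without the miR-200 family, 0.688. Induced over uninduced was 1.01 by position and 1.01 by barcode (0.995 to 1.03), and 1.05 without the miR-200 family; induced over DKO was 1.32, 1.36 by barcode, 1.43 without shared reads and 1.53 without the miR-200 family, which is past 1.5-fold. The 3p arm per 100 reads was 3.50 in uninduced and 3.16 in induced cells by position. Sites fell to 867 at 10 chimeras or more. The seed share was 36.1% for a 6-base match, where other miRNAs had 0.641%, and 11.0% per window. Genes past 3-fold numbered 2 in set 1, 40 in the set 2 DKO and 8 in the induced comparison (6 higher and 2 lower, against 27 and 32 at 2-fold), and at 40 chimeras or more 0, 13 and 4 were past 2-fold. With every read or barcode counted, 16 of the 20 leading genes were kept, and Cldn4 led in place of Neat1 where every read was counted. The barcode and per-window counts were chosen after seeing the data. The barcode has 4 bases, so distinct molecules can share one, and the set 1 DKO pool limits every comparison of set 1.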
